A study of Mus musculus with 4 samples.

Results

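The neurofilament and neuronal intermediate filament genes are *Nefl*, *Nefm*, *Nefh*, *Ina* and *Prph*, 5 genes chosen by name and matched by symbol to the Entrez identifiers of the deposited tables. All 5 were listed in all 4 libraries, among 15275 genes listed in all 4 and 17667 listed in at least 1. The libraries were RNA-seq of thoracic T1–T4 sympathetic ganglia (SG), which send axons to interscapular brown fat, from C57BL/6 mice aged 12 weeks and kept for 1 day at 5 °C. They were WT_1 and WT_2 from WT mice, 1 from TRKC+/- mice, and 1 from AdNTF3-Tg mice. TRKC+/- mice carry 1 intact copy of the gene for TRKC, the receptor of neurotrophin 3 (NT-3), in all their cells. AdNTF3-Tg mice carry an NT-3 transgene driven by the adiponectin promoter, which is active in adipocytes, so that the ganglion cells are not the cells made to express it. Each library was 1 pool of SG from 6 mice, and the comparison asks how SG gene expression differs when NT-3 in fat or its receptor is altered. All 4 pools came from mice exposed to cold, so no library gives the level without it.

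Neurofilaments are the main intermediate filaments of mature axons, where they set axon calibre. The light chain, encoded by *Nefl*, forms the core together with the medium chain (*Nefm*) and the heavy chain (*Nefh*), whose long tails project sideways from the filament and are phosphorylated at repeated lysine-serine-proline motifs. Internexin alpha (*Ina*) and peripherin (*Prph*) belong to the same class of proteins and can enter the same filaments. Internexin is best known from central and developing neurons, and peripherin from neurons of the peripheral nervous system, including sympathetic neurons.

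Each gene was located in the GENCODE annotation of mouse build NCBIM37 (mm9). *Nefl* lies on chromosome 14 at 68701920–68707152 on the plus strand in 4 exons, and the main transcript of *Nefm* lies at 68737340–68742903 of the same chromosome on the minus strand in 3 exons, 30187 bases away. *Nefh* lies on chromosome 11 at 4838757–4848067 on the minus strand in 4 exons. *Ina* lies on chromosome 19 at 47089188–47099817 on the plus strand in 3 exons, and *Prph* on chromosome 15 at 98885605–98889409 on the plus strand in 9 exons. A second annotated *Nefm* transcript runs through *Nefl* on the opposite strand and holds 31.8% of the 50-base words of the *Nefl* transcript, and *Nt5c2*, a nucleotidase gene, overlaps *Ina* on the opposite strand and holds 12.8% of its words. Whether the counting used strand is not given in the sources used here, and without strand reads in these overlaps cannot be told apart. *Nt5c2* measured 22.82 FPKM in WT_1, 23.49 in the library labelled TRKC+/-, 20.97 in WT_2 and 23.82 in AdNTF3-Tg. No 50-base word was shared between the main transcripts of any of the 5 genes, although they are one family.

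The tails are what tells the chains apart in sequence, so the stretches that carry the motif are shown for the chains that have it. Scanning the reading frames of the main transcripts in frame for a lysine, a serine and a proline codon in a row gave 51 triplets in *Nefh*, between codons 522 and 887 of 1091, and 4 in *Nefm*, between codons 501 and 609 of 849. *Nefl* with 544 codons, *Ina* with 502 and *Prph* with 476 held 0. Codon numbers count the start codon as 1 and the totals include the stop codon. The most triplets in any window of 150 coding bases were 8 in *Nefh* and 2 in *Nefm*, and several windows of each gene held that many. Those printed lie at coding bases 1555 to 1704 of *Nefh* and 1747 to 1896 of *Nefm*. In both lines the capitals mark the triplets, and the sequence is from GENCODE transcripts on NCBIM37.
Nefh: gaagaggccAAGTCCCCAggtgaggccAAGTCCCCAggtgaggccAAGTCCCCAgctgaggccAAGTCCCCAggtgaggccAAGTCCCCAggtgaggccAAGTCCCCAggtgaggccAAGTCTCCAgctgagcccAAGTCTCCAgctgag
Nefm: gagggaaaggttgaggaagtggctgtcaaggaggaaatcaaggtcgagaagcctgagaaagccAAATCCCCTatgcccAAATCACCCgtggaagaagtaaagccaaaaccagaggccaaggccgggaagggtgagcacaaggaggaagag
In the printed *Nefh* window the triplets recur at an even spacing within a near-identical unit, and 3.80% of the 50-base words of its transcript occur more than once in it. In *Nefm* the pair stands in a stretch that is not repeated.

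**Figure D1:**
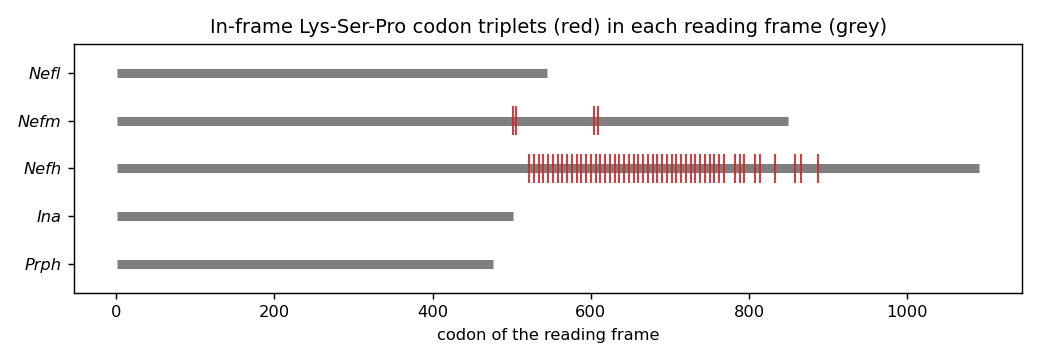
Reading frames of the 5 genes as grey bars against codon number, with each in-frame lysine-serine-proline codon triplet as a red line. *Nefh* holds 51 triplets between codons 522 and 887, *Nefm* holds 4, and *Nefl*, *Ina* and *Prph* hold 0.

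Each library held between 8665955 and 8894985 reads counted on genes. The genes that define the tissue were at high levels in every library: *Th* (tyrosine hydroxylase) was between 2576 and 2753 FPKM, *Dbh* (dopamine beta-hydroxylase) between 2100 and 2170 and *Npy* (neuropeptide Y) between 2181 and 2733. FPKM is the read count scaled to gene length and to the reads of the library. *Ntrk3*, which encodes TRKC, had 78 reads in WT_1, 83 in WT_2, 91 in the library labelled TRKC+/- and 76 in AdNTF3-Tg. It was therefore not lower in the library labelled TRKC+/- (log2 ratio 0.13, 95% counting interval -0.23 to 0.53). The level of the targeted gene thus does not check that label, so directions drawn from that library rest on the label alone. The paper reports lower *Trkc* expression in SG of TRKC+/- mice than of WT mice, from a measurement apart from these libraries. For *Ntf3*, the NT-3 gene itself, the library labelled TRKC+/- held 2 reads, and no other library listed it. The labels do not say which WT library is the control of which mutant, so each mutant was compared with the mean of both and with each alone. The 2 comparisons with WT thus share their WT libraries and are not independent of each other. In bulk ganglia, fewer neurons and less RNA per neuron cannot be told apart.

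*Prph* was by far the most abundant of the 5. It measured 901.94 FPKM in WT_1, 923.86 in the library labelled TRKC+/-, 929.67 in WT_2 and 888.11 in AdNTF3-Tg, and ranked between 25 and 28 among all genes of a library. *Nefl* followed with 237.36 FPKM in WT_1, 255.24 in the library labelled TRKC+/-, 250.82 in WT_2 and 278.96 in AdNTF3-Tg. *Nefm* measured 123.91, 134.39, 137.76 and 162.81 FPKM in these libraries, taken in that order. *Nefl* and *Nefm* were lowest in WT_1 and highest in AdNTF3-Tg, above both WT libraries, while *Prph* was lowest in AdNTF3-Tg.

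*Nefh* measured 57.02 FPKM in WT_1, 63.02 in the library labelled TRKC+/-, 61.15 in WT_2 and 66.01 in AdNTF3-Tg. *Ina* measured 59.23, 60.69, 58.89 and 66.30 FPKM in the same order. Both were highest in AdNTF3-Tg. The order *Prph*, *Nefl*, *Nefm* held in every library with no overlap between these genes, and all were above *Nefh* and *Ina*. *Nefh* and *Ina* were not separated: *Ina* was the higher of them in WT_1 and AdNTF3-Tg and *Nefh* in the other libraries. The mean of the WT libraries was 59.1 ± 2.92 FPKM (SD, n = 2) for *Nefh* and 59.1 ± 0.240 FPKM for *Ina*. Levels of different genes depend on the length used to scale them. The deposited lengths of *Nefl* and *Ina*, 2014 and 2272 bases, are below those of their GENCODE transcripts, 3380 and 3240 bases, whereas those of *Nefm* (3244 against 3334) and *Nefh* (4004 against 3994) are close.

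**Figure D2:**
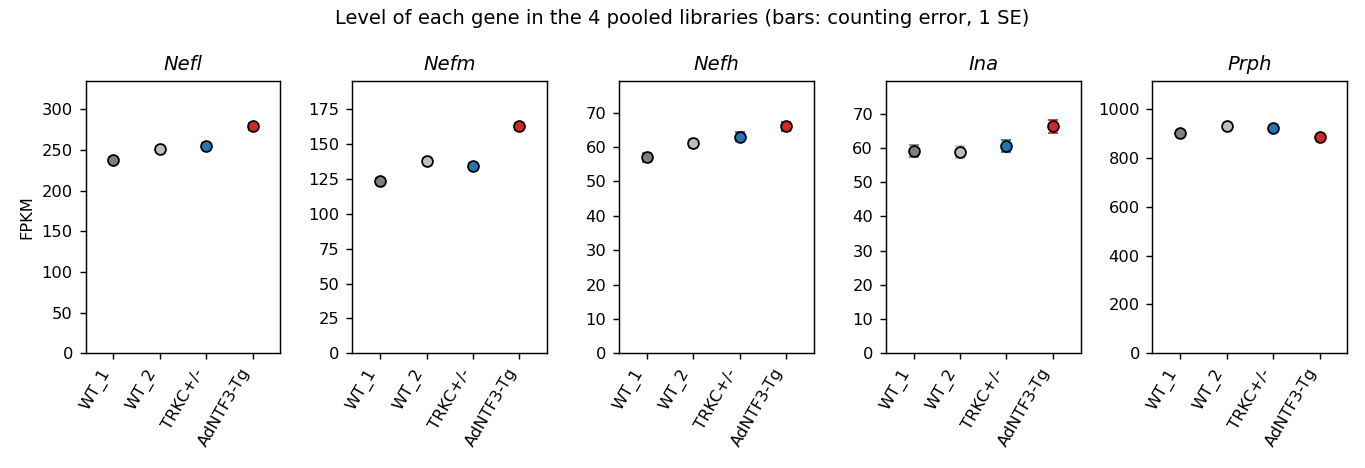
FPKM of each gene (vertical axes from 0, a separate scale for each gene) in the 4 pooled libraries, with bars of 1 standard error from counting alone. *Nefl*, *Nefm*, *Nefh* and *Ina* are highest in AdNTF3-Tg, and *Prph* is lowest there, at 888.11 FPKM.

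The spread between the WT libraries came first, since it is the only replicate spread. WT_2 was above WT_1 by a log2 ratio of 0.08 for *Nefl*, 0.15 for *Nefm*, 0.10 for *Nefh* and 0.04 for *Prph*, and differed by -0.01 for *Ina*. A gene was called at an absolute log2 ratio of at least 0.5, the cutoff named in the study's methods, with 0.1 FPKM added to both values. Between the WT libraries 0 of 5 genes were called, and 13.4% of all genes were. The 95% counting interval, which is exact (Clopper-Pearson), is taken on reads per library total and covers counting error only, left out 0 for 3 of 5, *Nefl*, *Nefm* and *Nefh*, and for 40.1% of the 1654 genes with at least as many reads as the least read of the 5.

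In AdNTF3-Tg, the genes of the 3 neurofilament chains and *Ina* were higher than in either WT library, and *Prph* was slightly lower than in either. *Nefm* stood farthest from WT. It had 4559 reads in AdNTF3-Tg against 3438 in WT_1 and 3877 in WT_2, and its log2 ratio to the WT mean was 0.32 (counting interval 0.26 to 0.36), or 24.4% more. Against WT_1 alone the ratio was 0.39 and against WT_2 alone 0.24, and both exceed the 0.15 between the WT libraries. Of the 1654 genes with at least as many reads as the least read of the 5, 0.544% had as high a ratio. As large a ratio in either direction was seen in 1.33%.

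*Nefl*, the core chain, had a log2 ratio of 0.19 (0.13 to 0.24) in AdNTF3-Tg against the WT mean, with 0.23 against WT_1 and 0.15 against WT_2. Of the genes of like read number 6.17% had as high a ratio, and 12.8% had as large a ratio in either direction. *Nefh*, the chain with the longest tail, had 0.16 (0.08 to 0.23), and its 0.11 against WT_2 alone is close to the 0.10 that separates the WT libraries. *Ina* had 0.17 (0.06 to 0.26), with 0.16 and 0.17 against the single WT libraries, which differed little from each other for this gene. As high a ratio was seen in 10.9% of genes of like read number for *Nefh* and in 9.61% for *Ina*. As large a ratio in either direction was seen in 20.7% and 18.6%. The differences of these chains were thus not rare among well read genes.

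*Prph* had a log2 ratio of -0.04 (counting interval -0.08 to -0.02) in AdNTF3-Tg, a direction that turned to 0.01 when each library's FPKM was rescaled to the same sum and to 0.03 when a trend on transcript length and GC content was removed. That size is the same as the 0.04 between the WT libraries. None of these differences reached the cutoff: 0 of 5 genes were called, beside 11.0% of all genes. The counting interval left out 0 for 5 of 5, beside 54.7% of the 1654 genes of like read number. AdNTF3-Tg was above both WT libraries for 4 of 5 genes, beside 33.7% of all genes, and below both for 1 of 5, beside 34.0%. The median log2 ratio of the 5 was 0.17, and that of all genes was 0.00.

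The test that the 4 libraries allow was edgeR's quasi-likelihood test, which took its spread from the WT libraries alone and assumed that the single mutant libraries vary like them. In AdNTF3-Tg against WT 0 of 5 genes had a Benjamini-Hochberg adjusted p under 0.05, beside 0% of the 14156 genes tested, so the test called no gene at all. The adjusted p from edgeR was 0.817 for *Nefl*, *Nefm*, *Nefh* and *Ina* and 0.892 for *Prph*. Before adjustment edgeR gave 0.00604 for *Nefm* and 0.0297 for *Nefl*, so that 2 of 5 were under 0.05, beside 5.88% of genes. DESeq2 put 1 of 5, *Nefm*, under 0.05 before adjustment, beside 0.363% of genes. Adjusted p over the tools and settings tried ranged from 0.781 to 1. The spread has 1 residual degree of freedom. The paper names a respective WT control for each mutant, so a difference between these control groups can enter the spread.

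In the library labelled TRKC+/-, all 5 genes lay close to WT. The log2 ratio to the WT mean was 0.09 (counting interval 0.02 to 0.17) for *Nefh*, 0.06 (0.01 to 0.12) for *Nefl*, 0.04 (-0.02 to 0.09) for *Nefm*, 0.04 (-0.06 to 0.14) for *Ina* and 0.01 (-0.02 to 0.04) for *Prph*. *Nefl*, *Nefh* and *Ina* were above both WT libraries, 3 of 5 beside 31.9% of all genes, and *Nefm* and *Prph* lay between them, so that 0 of 5 were below both, beside 30.8%. Against WT_2 alone *Nefm* had -0.04 and *Prph* -0.01, while against WT_1 alone all 5 were positive, from 0.03 to 0.14.

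At the cutoff 0 of 5 genes were called in this library, beside 8.56% of all genes, and the counting interval left out 0 for 2 of 5, *Nefl* and *Nefh*, beside 36.7% of the genes of like read number. By edgeR 0 of 5 had an adjusted p under 0.05, beside 0.00706% of genes (1 gene, *Ucp1*), and 0 of 5 had an unadjusted p under 0.05, beside 1.93%. DESeq2 also gave 0 of 5 before adjustment, beside 0.119%. The adjusted p from edgeR was 0.999 for each of the 5, and it ranged from 0.972 to 1 over the tools and settings tried. Against the WT mean no counting interval reached beyond 0.17 on the log2 scale, and against WT_1 alone that of *Nefh* reached 0.23.

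The mutant libraries were also set against each other, which needs no WT library and has 1 library on each side; this contrast was described without a test. *Nefm* was 0.28 higher in AdNTF3-Tg on the log2 scale (counting interval 0.21 to 0.33), *Nefl* 0.13 (0.06 to 0.18), *Ina* 0.13 (0.01 to 0.24) and *Nefh* 0.07 (-0.02 to 0.15). *Prph* was the exception with -0.06 (-0.10 to -0.03), a value that became 0.08 with the trend on length and GC content removed. The same removal put *Nefm* at 0.36, *Nefl* at 0.17, *Ina* at 0.22 and *Nefh* at 0.13. 0 of 5 passed the cutoff, beside 13.1% of all genes, and the interval left out 0 for 4 of 5, beside 47.8% of genes of like read number.

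**Figure D3:**
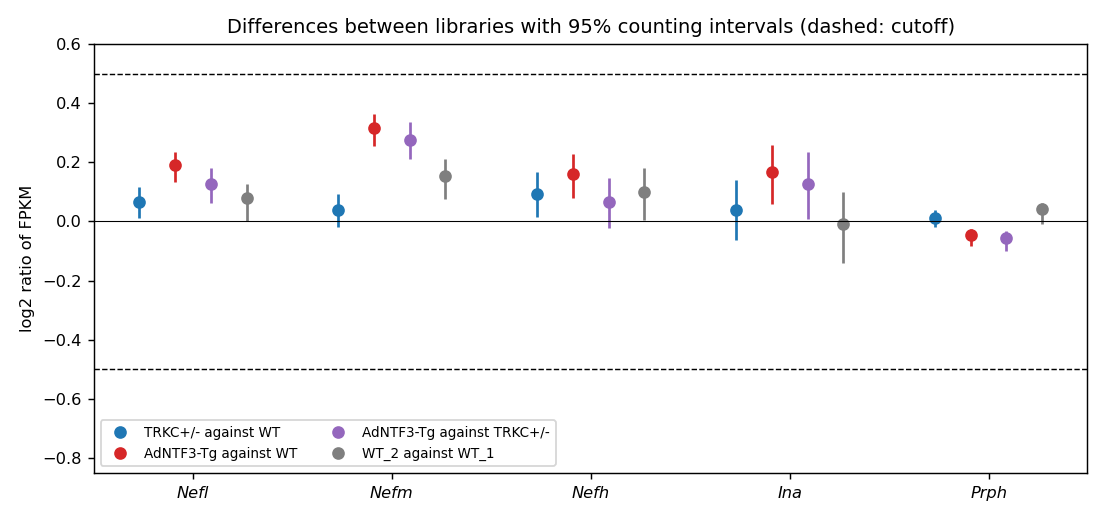
Log2 ratio of FPKM for each gene in 4 comparisons between libraries (points), with 95% counting intervals of the read ratio (lines) and the cutoff of 0.5 in either direction (dashed). The highest point is *Nefm* in AdNTF3-Tg against WT at 0.32, and no point reaches the cutoff.

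The proportions of the chains were also compared, without a test. Of the FPKM summed over the 5 genes, *Prph* made up 65.4% in WT_1, 64.3% in the library labelled TRKC+/-, 64.6% in WT_2 and 60.7% in AdNTF3-Tg. *Nefm* made up 8.98%, 9.35%, 9.58% and 11.1% in the same order, and *Nefl* 17.2%, 17.8%, 17.4% and 19.1%. The AdNTF3-Tg library thus had the lowest share of peripherin and the highest share of each of the other 4 genes, outside the range of the other libraries, with *Nefh* at 4.51% and *Ina* at 4.53%.

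Ratios within a library do not depend on its scaling, although they depend on the gene lengths. The ratio of *Nefm* to *Nefl* FPKM was 0.522 in WT_1 (counting interval 0.499 to 0.546), 0.527 in the library labelled TRKC+/-, 0.549 in WT_2 (0.526 to 0.574) and 0.584 in AdNTF3-Tg (0.560 to 0.608). The interval of AdNTF3-Tg overlaps that of WT_2 and not that of WT_1. The ratio of *Prph* to *Nefl* was 3.80, 3.62, 3.71 and 3.18 in the same order, and here the AdNTF3-Tg interval of 3.08 to 3.29 lies below those of the other libraries, the lowest of which begins at 3.50. The ratio of *Nefh* to *Nefl* stayed between 0.237 and 0.247 in all 4 libraries, and that of *Ina* to *Nefl* between 0.235 and 0.250.

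**Figure D4:**
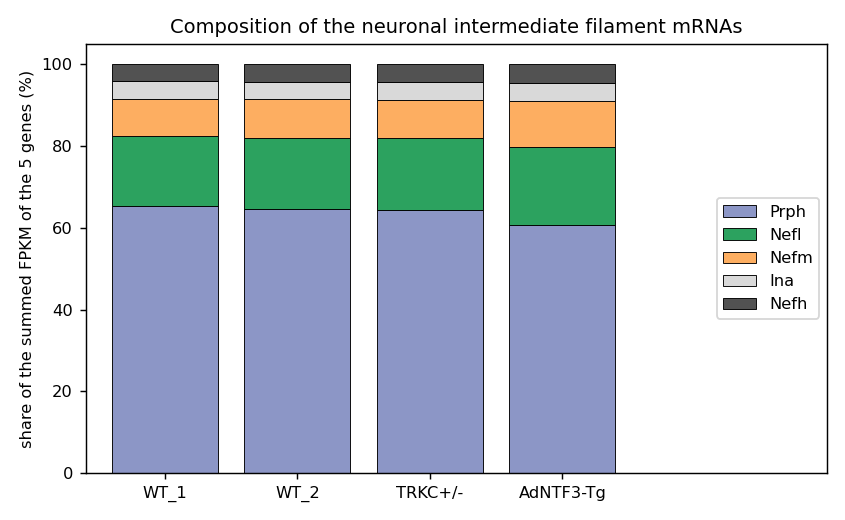
Share of each gene in the FPKM summed over the 5 genes (%, stacked to 100) in each library. *Prph* takes between 64.3% and 65.4% in the WT libraries and the library labelled TRKC+/-, and 60.7% in AdNTF3-Tg.

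The neurons themselves were compared through 12 pan-neuronal genes and 12 genes of sympathetic neurons. The summed FPKM of the pan-neuronal genes was 6745 in WT_1, 6778 in the library labelled TRKC+/-, 6728 in WT_2 and 6450 in AdNTF3-Tg, and the median log2 ratio was 0.02 in the library labelled TRKC+/- and 0.01 in AdNTF3-Tg. The most abundant of them, *Uchl1* (a neuronal deubiquitinase), *Tubb3* (beta-III tubulin) and *Stmn2* (stathmin 2), had log2 ratios of -0.12, -0.10 and -0.06 in AdNTF3-Tg, where 6 of the 12 were positive and 6 negative, from -0.12 to 0.47. The sympathetic list summed to 10034, 10178, 9877 and 9525 FPKM in the same order, with medians of 0.03 and 0.02. *Th*, *Dbh* and *Npy* had -0.04, 0.02 and -0.26 in AdNTF3-Tg, where 7 of the 12 were positive. In AdNTF3-Tg the ratios of *Nefl*, *Nefm*, *Nefh* and *Ina* each exceeded those of 11 of 12 pan-neuronal genes and 12 of 12 sympathetic genes, whereas *Prph* exceeded 5 and 4. The neurofilament genes thus stood above the medians of both neuronal lists in that library. With the trend on length and GC content removed, the sympathetic median there was 0.05. The median of the 11 pan-neuronal genes with a GC value went from -0.02 to 0.03. Without that removal, *Nefl*, *Nefm*, *Nefh* and *Prph* also stood above both medians in WT_2 against WT_1, and *Ina* did not. The excess over the pan-neuronal median was 0.08, 0.15, 0.10 and 0.05 in that order. In the library labelled TRKC+/- the 5 genes exceeded between 6 and 10 of the 12 pan-neuronal genes. Past the cutoff was 1 of 12 pan-neuronal genes in that library, *Rbfox3* at 0.75 and under 1 FPKM in every library, and 0 in AdNTF3-Tg, with 0 of 12 sympathetic genes in either.

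Genes that act on the filaments were described by lists. The linkers and motors that tie filaments to other structures or carry them along axons had a median log2 ratio of 0.13 in AdNTF3-Tg and -0.04 in the library labelled TRKC+/-, with 0 of 10 past the cutoff in either. Of these 10 genes 8 have deposited lengths of 6000 bases or more, and with the trend on length and GC content removed the median in AdNTF3-Tg was 0.01. *Klc1* (kinesin light chain) had 0.00 in AdNTF3-Tg, *Kif5a* (the neuronal kinesin heavy chain that moves neurofilaments) 0.14 and *Dync1h1* (the dynein heavy chain) 0.19, and 8 of 10 were positive there. The kinases and phosphatases of the tails had medians of 0.05 and 0.01 with 0 of 16 past the cutoff. Among them *Mapk3* (ERK1), *Ppp2ca* (the catalytic subunit of PP2A) and *Prkaca* (the catalytic subunit of protein kinase A) had -0.04, 0.02 and -0.12 in AdNTF3-Tg, where 11 of 16 were positive.

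The turnover, chaperone and mRNA-binding list had medians of 0.04 and 0.02 with 0 of 14 past the cutoff. Its most abundant genes, *Hspa8* (the constitutive HSP70), *Sod1* (superoxide dismutase) and *Hspb8* (a small heat shock protein), had -0.02, -0.24 and -0.11 in AdNTF3-Tg, where 9 of 14 were positive. By edgeR 0 genes of these lists had an adjusted p under 0.05 in either comparison. Before adjustment 3 of 10 linkers and motors and 1 of 14 of the turnover list had p under 0.05 in AdNTF3-Tg. For the kinases and phosphatases it was 0 of 16, and for all genes tested 5.88%. In the library labelled TRKC+/- it was 0 of each list, beside 1.93% of all genes tested. These counts were taken without removal of the length and GC trend.

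Intermediate filament genes of other cells and of the nucleus had a median log2 ratio of -0.02 in AdNTF3-Tg and 0.06 in the library labelled TRKC+/-. *Vim* (vimentin) had -0.09 in AdNTF3-Tg, *Lmna* (lamin A/C) -0.02 and *Gfap* (the glial filament protein) -0.26. Of 11 genes of this list in all libraries, 3 passed the cutoff in AdNTF3-Tg: *Bfsp1* (a lens filament protein) at 1.10, *Krt19* (a keratin) at -0.73 and *Des* (the muscle filament desmin) at -0.70. *Bfsp1* and *Krt19* were below 1 FPKM in every library, and *Des* lay past the cutoff against WT_1 only. In the library labelled TRKC+/- 0 of 11 passed.

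**Figure D5:**
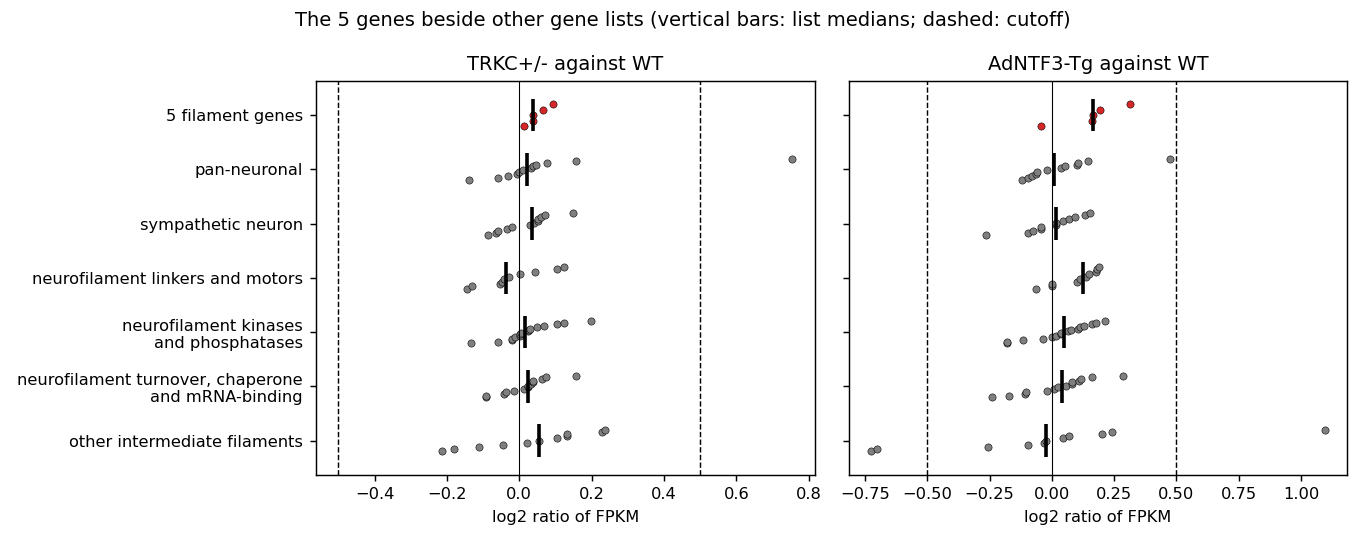
Log2 ratio of FPKM against the mean of the WT libraries for the 5 genes (red) and for 6 other gene lists (grey), in the library labelled TRKC+/- (left) and in AdNTF3-Tg (right, with its own horizontal scale), with list medians as vertical bars and the cutoff dashed. In AdNTF3-Tg 4 of the 5 genes lie to the right of nearly all pan-neuronal and sympathetic genes.

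Markers of other cells varied between libraries, and their part in the values above was not tested. The summed FPKM of 6 skeletal muscle genes was 77.6 in WT_1, 35.0 in the library labelled TRKC+/-, 2.36 in WT_2 and 28.8 in AdNTF3-Tg, so that muscle RNA was most unlike between the WT libraries. The 5 adipocyte genes summed to 366, 199.5, 332 and 269 FPKM in the same order, with *Ucp1* (uncoupling protein 1) at -2.60 and *Fabp4* (the adipocyte fatty acid binding protein) at -0.80 in the library labelled TRKC+/-. The 12 glial genes summed to 1162, 1135, 997 and 1095 FPKM, the 5 macrophage genes to 87.1, 76.9, 72.3 and 63.9, and the 4 fibroblast genes to 292, 262, 219.95 and 247. Sensory neurons also hold neurofilaments, and their 11 markers were low apart from *Avil* (advillin), which was between 195 and 207 FPKM. Over the 8 of them listed in every library the median log2 ratio was 0.13 in AdNTF3-Tg and -0.29 in the library labelled TRKC+/-. *Drgx* was listed in no library, *Mrgprd* and *Pvalb* were at 0 in 1 library each, and *Calca*, which encodes CGRP, had 4.18, 2.75, 3.13 and 6.19 FPKM, a log2 ratio of 0.74 in AdNTF3-Tg. *Trpv1* (the capsaicin receptor), under 1 FPKM in every library, had 0.74 in AdNTF3-Tg and 0.74 in the library labelled TRKC+/-. *Scn10a* and *Scn11a* (sodium channels of nociceptors) had -1.01 and -0.97 in the library labelled TRKC+/- and 0.50 and -0.39 in AdNTF3-Tg, at under 1 FPKM. Past the cutoff were thus 3 of the 8 higher and 0 lower in AdNTF3-Tg, and 1 higher and 2 lower in the library labelled TRKC+/-. Of the 4 cholinergic markers *Mnx1* was at 0, and the others summed to between 6.36 and 8.31 FPKM.

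Transcript length moved with the AdNTF3-Tg ratios. Among the 1654 genes of like read number, the median log2 ratio in AdNTF3-Tg against WT was -0.21 for the 111 genes shorter than 1000 bases and 0.11 for the 260 genes of 6000 bases or more. It was -0.01 between 2000 and 3000 bases and 0.03 between 3000 and 4000, the bands of the deposited lengths of *Nefl* and *Ina* and of *Nefm*. It was 0.08 between 4000 and 6000 bases, where *Nefh* falls, and -0.08 between 1000 and 2000, where *Prph* falls. With a trend on length and GC content removed, an alternative chosen after the data were seen, the ratio was 0.32 for *Nefm*, 0.26 for *Nefl*, 0.23 for *Ina* and 0.14 for *Nefh*. The same removal put WT_2 against WT_1 at 0.22 for *Nefm*, 0.10 for *Nefl*, 0.06 for *Ina*, 0.16 for *Nefh* and 0.12 for *Prph*, so that the AdNTF3-Tg ratio of *Nefh* was then below the difference between the WT libraries. In the library labelled TRKC+/- the same removal took *Nefh* from 0.09 to 0.01 and *Ina* from 0.04 to 0.00, put *Nefm* at -0.04 and *Prph* at -0.05, and took *Nefl* from 0.06 to 0.09, so that 3 of 5 were positive.

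The genes whose levels over the 4 libraries ran most like each of the 5 were found among the 6797 genes that averaged 10 FPKM or more, by the distance between log2 profiles centred on their means. With 4 libraries such profiles are a description only. Those nearest to *Nefl* were *Fam117b* at a distance of 0.020, *C2cd2l* at 0.021 and *Trim37* at 0.021, and those near to *Nefm* included *Itch* (a ubiquitin ligase) at 0.030 and *Tmed7* at 0.038. *Usp35*, *App* (the amyloid precursor protein) and *Smim13* were nearest to *Nefh*, with *App* at 0.011, and *Rab11fip5*, *Arhgef12* and *Lynx1* to *Ina*. *Ythdf1*, *Slc25a51* and *Mapk3* were nearest to *Prph*, with *Ythdf1* at 0.0078. Within the family the closest pair was *Nefl* and *Nefh* at 0.046, and the farthest was *Nefm* and *Prph* at 0.32. None of the 5 was thus among the 3 nearest genes of another.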

How the data were processed

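RNA from T1–T4 SG was enriched for mRNA with oligo(dT), sequenced as single-end reads, filtered with SOAPnuke (v1.5.2) and, by the study's methods, mapped to mm9 with HISAT2 (v2.0.4), whereas the submitters' processing notes name mm10 and RSEM. For each gene the authors deposited an expected count, not normalized, and an FPKM. Log2 ratios used FPKM + 0.1, and a mutant was compared with the mean of the WT libraries. Counting intervals and tests used expected counts rounded to whole numbers. The main tool was edgeR 4.0.16 with TMM, filterByExpr, 3 groups and Benjamini-Hochberg over all genes tested. DESeq2 1.42.0 was the alternative, and only edgeR was also run on simulated data. The 1 residual degree of freedom comes from WT_1 and WT_2, and replicates here are pools. Symbols came from RefSeq (GRCm38.p6, 99.7% of identifiers matched), positions and transcripts from GENCODE M1 on NCBIM37. The 5 genes and the lists were chosen with earlier results of these data known. Of each list the 3 most abundant genes are named, with every gene past the cutoff in the same direction against each WT library. *Nt5c2*, *Rbfox3*, *Trpv1*, *Des* and some markers at 0 or of low level were named after their values were seen. A result on 1 further gene is not reported here.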

Additional observations from a re-analysis of the deposited data

How the results depend on the processing

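The count of the 5 genes past the cutoff was 0 in every comparison to which an alternative applied (pseudocounts of 1 and 0.01, TMM and DESeq2 scaling of counts, FPKM rescaled to the same sum, centring on the median of genes of at least 1 FPKM or on the pan-neuronal list, a minimum of 1 FPKM, either WT library left out of the comparisons of a mutant with WT, and removal of the length and GC trend), and the count with an adjusted p under 0.05 was 0 under edgeR and DESeq2. Over the scalings of AdNTF3-Tg against WT, *Nefm*, *Nefl*, *Nefh* and *Ina* stayed positive, and *Prph* became 0.01 when FPKM was rescaled to the same sum, which moved the median of all genes to 0.05. Without WT replicate 1, the ratios of the library labelled TRKC+/- ran from -0.04 to 0.04 with 3 of 5 positive, and without WT replicate 2 from 0.03 to 0.14. Without WT replicate 1 the AdNTF3-Tg ratios ran from -0.07 to 0.24, and without WT replicate 2 from -0.02 to 0.39. The number of all genes past the cutoff depended on the setting. Of 15275 genes 1674 passed in AdNTF3-Tg and 1308 in the TRKC+/- comparison. The same genes gave 404 and 269 with a pseudocount of 1, and 2026 and 1678 with 0.01. With a minimum of 1 FPKM 691 and 427 of 12752 genes passed. Counts, over 17619 genes, gave 2930 and 2500 with TMM, and 3501 and 3106 with DESeq2 size factors. In the counts the scaling and the set of genes changed together. No paired analysis was possible because each mutant group holds 1 library. Each of the 5 genes had over 1000 reads in every library, and each mutant had 1 library.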
